A study of Bos taurus with 24 samples.

Results

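A set of 10 genes that mark macrophages and lymphocytes was followed in RNA of bovine ovarian follicles. They are CD68, TYROBP, C1QB, C1QC, CSF1R and CD14, called here the myeloid genes, PTPRC, CORO1A and CD3E as the leukocyte and lymphoid genes, and the chemokine CCL2. The genes were picked with earlier results of these data known. They were chosen by name, as the features of the array whose platform annotation gives 1 of these 10 symbols. This gave 17 of the 17418 features, and all 10 genes were among the 9026 genes that could be tested.

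The material was total RNA from 16 heifers, 1 follicle per animal, the largest one, measuring between 8 and 12 mm across. On 24 two-colour arrays, each array took 5 µg of total RNA from each of 2 follicles, labelled with Cy5 and Cy3, and every follicle was on 3 arrays with different partners. The labels name follicles by an identifier only (8, 26, 27, 31, 33, 46, 861, C10, C12, C13, C22, C26, C32, C35, H893 and J980) and give no treatment, health status or stage, so each follicle is a group of its own and the comparisons are between follicles. The arrays held 16094 to 17028 values each, and their number limits the precision.

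Macrophages are phagocytes that live in the ovarian stroma and in the theca, the vascular outer layers of a follicle wall. In a healthy growing follicle the basement membrane keeps most leukocytes out of the granulosa layer. Macrophages enter the follicle when it undergoes atresia, where they clear dying granulosa cells, and leukocytes also gather in the wall around ovulation. Lymphocytes, mainly T cells, are the other resident leukocytes of the ovary. A whole follicle contains all these layers and the blood in its vessels.

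A two-colour array gives the ratio of 2 follicles and no level on an absolute scale. The level of a gene in a follicle is here its estimated log2 difference from the mean of the 16 follicles, with its SE from array error over 3 arrays. One heifer gave 1 follicle, so the SE holds no spread between animals or between follicles of 1 animal. The levels of different genes cannot be compared with each other, and whether a gene is present at all cannot be read from a ratio, so the macrophage or follicle identity of the tissue could not be checked from levels. The ratios were read as Cy5 over Cy3, which the labels make likely and do not state. If they run the other way every high follicle below is a low one, while the F tests and correlations stay the same.

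Follicle J980 stood apart over the whole array. Of the 1061 genes that differed between follicles, 421 were lowest and 91 highest in it. C26 was highest for 93 of these genes (8.77%) and C32 for 48 (4.52%). The fit was therefore repeated without J980 and, after the values were seen, without C26 and without C26 and C32. It called 673 genes without J980 and 489 without C26, where 7.47% and 5.48% of the genes tested passed.

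Among the 10 marker genes, 6 differed between follicles by limma's F test over all 16 levels at an adjusted p of 0.05. They were CD68, TYROBP, C1QB, C1QC, CORO1A and CCL2, and over all genes tested 11.8% passed. As the markers were picked with earlier results of these data known, this comparison is a description and does not test the set. By set, 4 of 6 myeloid genes, 1 of 3 leukocyte and lymphoid genes and the chemokine passed. An adjusted p beside a level below is that of the F test of the gene, unless a test of single levels is named. Such a p does not say that the level itself lies apart from the mean. The levels of a marker had a median SD of 0.29 over the follicles, against 0.17 for all genes tested and 0.29 for those that passed. In RNA of a whole follicle, fewer cells of a type and less RNA per cell cannot be told apart. Without J980 5 of the 10 passed, without C26 3, and without C26 and C32 only CCL2. With no dye term, or with variances not moderated across genes, C1QB, C1QC and CCL2 passed.

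**Figure D1:**
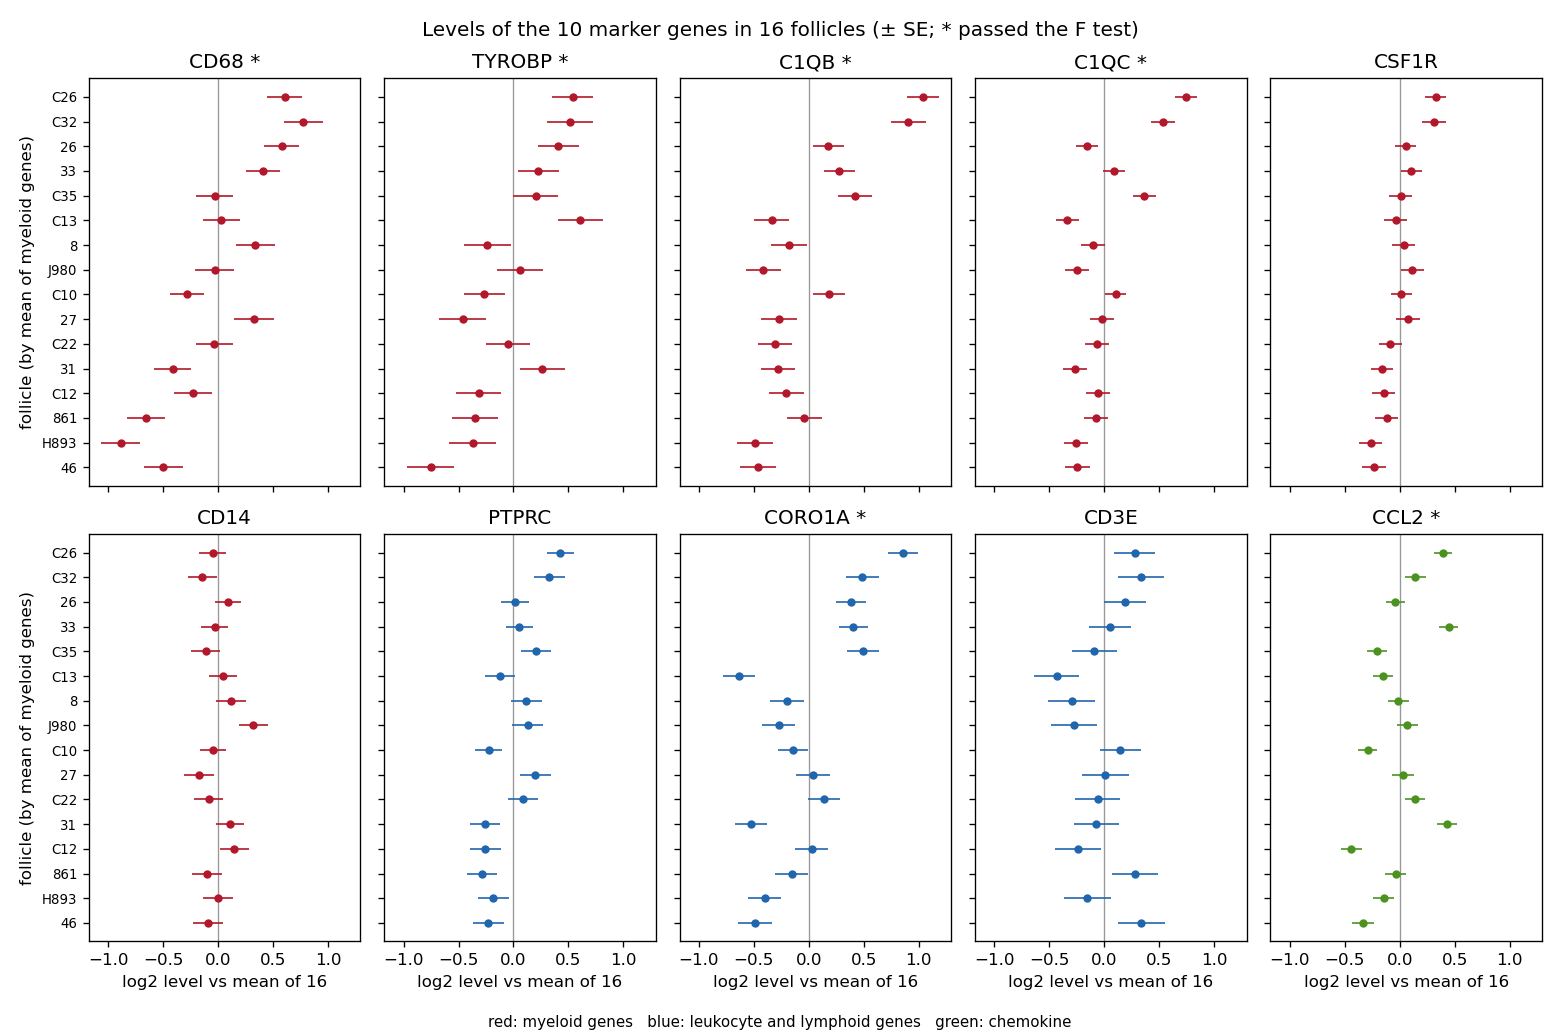
Estimated log2 level of each marker gene (horizontal axis, difference from the mean of the 16 follicles) in each follicle (vertical axis, ordered by the mean of the 6 myeloid genes); points are estimates, bars ± 1 SE from array error, and an asterisk marks the 6 genes that passed the F test. C26 and C32 lie at the top of most panels, with C1QB at 1.04 and 0.90, while CD14 follows another order and CCL2 is highest in follicle 33.

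C1QB and C1QC encode chains of C1q, the molecule that starts the classical complement pathway and that tissue macrophages make in quantity. The C1QB level was 1.04 ± 0.14 (SE, 3 arrays) in follicle C26 and 0.90 ± 0.16 in C32. The next follicle, C35, lay at 0.42 ± 0.16, the median was -0.20, and H893 was lowest at -0.49 ± 0.16. The 2 highest follicles did not differ from each other beyond their error. The gap between C32 and C35 was 0.48 ± 0.19 and exceeded 2 SE, as no other gap between neighbours in the C1QB order did. The order comes from the same levels, and the 15 gaps per gene were not adjusted for their number. Gaps between neighbours are therefore a description and do not test whether follicles form groups. The range corresponds to 2.89-fold, and C1QB passed the F test (adjusted p = 0.00451).

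C1QC repeated this order in its upper part. It was at 0.74 ± 0.10 in C26, 0.53 ± 0.11 in C32 and 0.36 ± 0.11 in C35, with a median of -0.07 and a lowest level of -0.34 ± 0.11 in C13. The range was 2.11-fold, and C1QC passed the F test (adjusted p = 0.00849). No pair of neighbours in the order differed beyond 2 SE. The call of C1QC was lost without C26 (adjusted p = 0.0912), where C1QB still passed (adjusted p = 0.0449). C1QA, the remaining chain of C1q and not among the 10 genes, did not show this pattern. Its levels ran from 0.18 ± 0.17 in follicle 861 to -0.16 ± 0.18 in H893 (adjusted p = 0.879), with r = 0.20 with the mean of the 6 myeloid genes.

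The single arrays show the same 2 follicles. C26 exceeded C22 by 1.42 in C1QB and by 0.82 in C1QC, and it exceeded follicle 33 by 0.81 and 0.69, all as log2 ratios on 1 array. C32 exceeded follicle 27 by 1.26 in C1QB and by 0.56 in C1QC, and follicle 8 by 0.82 and 0.50. On the array that compared C26 directly with C32, the ratio of C26 over C32 was -0.02 for C1QB and 0.12 for C1QC. Each of the high follicles thus exceeded both of its other partners in both genes, and the pair differed little when set side by side.

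**Figure D2:**
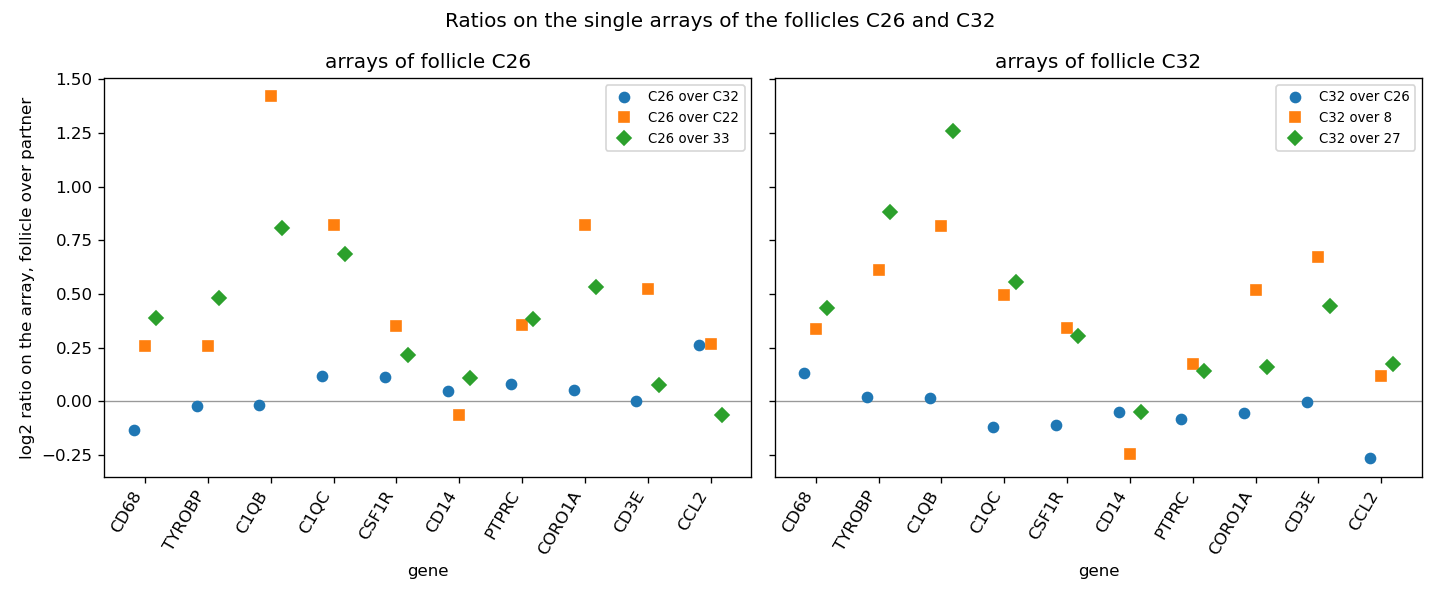
Log2 ratio on each of the 3 arrays of follicle C26 (left) and of follicle C32 (right), as follicle over partner, for the 10 marker genes; each symbol is 1 array. Ratios between C26 and C32 lie near 0 for most genes, while C1QB reaches 1.42 for C26 over C22 and 1.26 for C32 over follicle 27.

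CD68, a lysosomal glycoprotein used as a marker of macrophages, had the largest SD of the 10 genes, 0.48, above that of 96.6% of all genes tested. It was highest in C32 at 0.78 ± 0.17, followed by C26 at 0.61 ± 0.16 and follicle 26 at 0.58 ± 0.16. The median was -0.03, and the lowest follicles were 46 at -0.50 ± 0.18, 861 at -0.65 ± 0.17 and H893 at -0.89 ± 0.18. In the order of CD68 levels no neighbours differed beyond 2 SE. The range was 3.16-fold. CD68 passed the F test (adjusted p = 0.0264), but this depended on the data included. The adjusted p was 0.0827 without J980 and 0.0502 without C26, and 17 of 24 fits that each left out 1 array passed.

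TYROBP encodes DAP12, an adaptor through which activating receptors of macrophages and natural killer cells signal. Its highest level, 0.61 ± 0.20, was in C13, with 0.54 ± 0.19 in C26 and 0.52 ± 0.21 in C32. The median was 0.00, and the lowest was follicle 46 at -0.75 ± 0.21. C13 was the follicle in which C1QC, CORO1A and CD3E were lowest, so TYROBP placed it at the opposite end from those genes. One array carried much of this: C13 exceeded follicle 46 by 1.77 on the array they shared, whereas C13 over 31 was -0.13 and C13 over 33 was 0.24. The F test passed with all arrays (adjusted p = 0.0266) and missed the threshold without the array of C13 and 46 (adjusted p = 0.0897), with arrays at one scale (adjusted p = 0.0525) and without C26 (adjusted p = 0.0677).

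CSF1R, the receptor for the growth factor on which macrophages depend for survival, varied less as the average of its 4 features. Its levels ran from 0.33 ± 0.09 in C26 and 0.31 ± 0.11 in C32 through a median of 0.01 to -0.26 ± 0.11 in H893. The order resembled that of CD68, but CSF1R did not pass the F test (adjusted p = 0.288). Its range was 1.51-fold. CD14, the co-receptor for bacterial lipopolysaccharide on monocytes and macrophages, varied least of the 10 genes, with an SD of 0.13. J980 had the highest level, 0.32 ± 0.13, and follicle 27 the lowest, -0.17 ± 0.14, with a median of -0.04 (adjusted p = 0.535). C26 and C32 were not high for CD14, at -0.05 ± 0.12 and -0.14 ± 0.13.

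Of the genes that mark leukocytes in general, CORO1A differed between follicles. It encodes coronin 1A, an actin regulator of leukocytes. The level was 0.86 ± 0.13 in C26, 0.49 ± 0.15 in C35 and 0.49 ± 0.15 in C32, with a median of -0.06. The lowest follicles were 46 at -0.49 ± 0.15, 31 at -0.52 ± 0.15 and C13 at -0.64 ± 0.15. The range was 2.82-fold, and CORO1A passed the F test (adjusted p = 0.0115). On a single array follicle C13 was below follicle 33 by a log2 ratio of -1.21. The adjusted p was 0.0307 without C26 and 0.0533 without C26 and C32.

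PTPRC encodes CD45, a phosphatase on the surface of all nucleated blood cells. It ordered the top follicles like C1QB and C1QC, with 0.43 ± 0.13 in C26, 0.33 ± 0.14 in C32 and 0.20 ± 0.14 in C35. The median was 0.03 and the lowest level was -0.29 ± 0.14 in follicle 861. These differences did not pass the F test (adjusted p = 0.596). CD3E, a chain of the T cell receptor complex, had another order. It was at 0.34 ± 0.21 in follicle 46, 0.33 ± 0.21 in C32 and 0.28 ± 0.21 in 861, with a median of -0.02 and -0.43 ± 0.20 in C13 (adjusted p = 0.259). Follicle 46 was thus the highest for CD3E and the lowest for TYROBP, but the CD3E levels as a whole were not separated beyond array error.

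CCL2, also known as MCP-1, is a chemokine that draws monocytes into tissue and is made by many cell types. It had the smallest adjusted p of the 10 genes (0.00303), passed in all 24 fits that each left out 1 array, and passed without J980, without C26, and without C26 and C32. Follicle 33 was at 0.44 ± 0.09, 31 at 0.43 ± 0.09 and C26 at 0.39 ± 0.09. The median was -0.02, and C10 at -0.29 ± 0.09, 46 at -0.33 ± 0.10 and C12 at -0.44 ± 0.10 were lowest. The 3 highest follicles did not differ from each other beyond their error. The gap from C26 to the next follicle was 0.25 ± 0.10, beyond 2 SE, again in an order read from the same levels. On single arrays follicle 33 exceeded C12 by 0.87 and C13 by 0.58, and follicle 31 exceeded C10 by 0.76, C13 by 0.63 and H893 by 0.48.

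CCL2 was set beside the macrophage genes. Its r over the 16 follicles was 0.53 with TYROBP, 0.49 with CSF1R, 0.43 with CD68, 0.37 with C1QB, 0.30 with C1QC and -0.01 with CD14. Against CCL2, 90% of all genes tested lay between -0.44 and 0.45, and against TYROBP between -0.45 and 0.46. Only TYROBP lay beyond the range of both genes of its pair. CSF1R lay beyond that of CCL2 but within its own, between -0.65 and 0.67. Follicle 33, the highest for CCL2, had a mean of the 6 myeloid genes of 0.18, and follicle 46 was low for both, with a myeloid mean of -0.38. Follicles 31 and C32 ran otherwise. Follicle 31 was among the highest for CCL2 and had a myeloid mean of -0.13 and of the 3 leukocyte and lymphoid genes of -0.28. C32, with a myeloid mean of 0.48, was at 0.14 ± 0.10 for CCL2. C26 was high for both.

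CSF1R, CD3E and CCL2 were measured by more than 1 feature, which allows the same gene to be read more than once. The 4 features of CCL2 ordered the follicles alike, with a Pearson r of 0.67 to 0.95 between pairs over the 16 follicles, yet their spread differed widely. Numbered by their place identifiers, feature 4 had an SD of levels of 0.57 and feature 3 of 0.29, and both passed (adjusted p = 0.00239 and 0.00121). Feature 1 had an SD of 0.21 (adjusted p = 0.0513) and feature 2 of 0.05 (adjusted p = 0.986). The CCL2 level above averages these 4, so its size depends on the features: feature 4 alone ran from 0.98 ± 0.21 in follicle 31 to -1.03 ± 0.21 in C12. Over all features tested 12.2% passed.

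Of the 4 features of CSF1R, features 1 to 3 had r of 0.75 to 0.91 with each other. Feature 4 ran against them, with r of -0.53 to -0.44, and was highest in C12 at 0.56 ± 0.35. The CSF1R level above averages all 4 and had an SD of 0.17, where features 1 to 4 had 0.12, 0.23, 0.29 and 0.27. Its small spread thus depends on the averaging. None of the 4 passed, with adjusted p of 0.962, 0.218, 0.124 and 0.762 from features 1 to 4, and feature 3, the most variable of the concordant ones, was at 0.52 ± 0.13 in C26 and -0.46 ± 0.15 in follicle 46. The 2 features of CD3E shared no order (r = -0.06), and neither passed (adjusted p = 0.0809 and 0.145). Feature 1 of CD3E was lowest in C13 at -0.73 ± 0.17, and feature 2 was highest in follicle 46 at 0.58 ± 0.28, so the extremes of the CD3E average came from different features. The other 7 genes had 1 feature each.

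**Figure D3:**
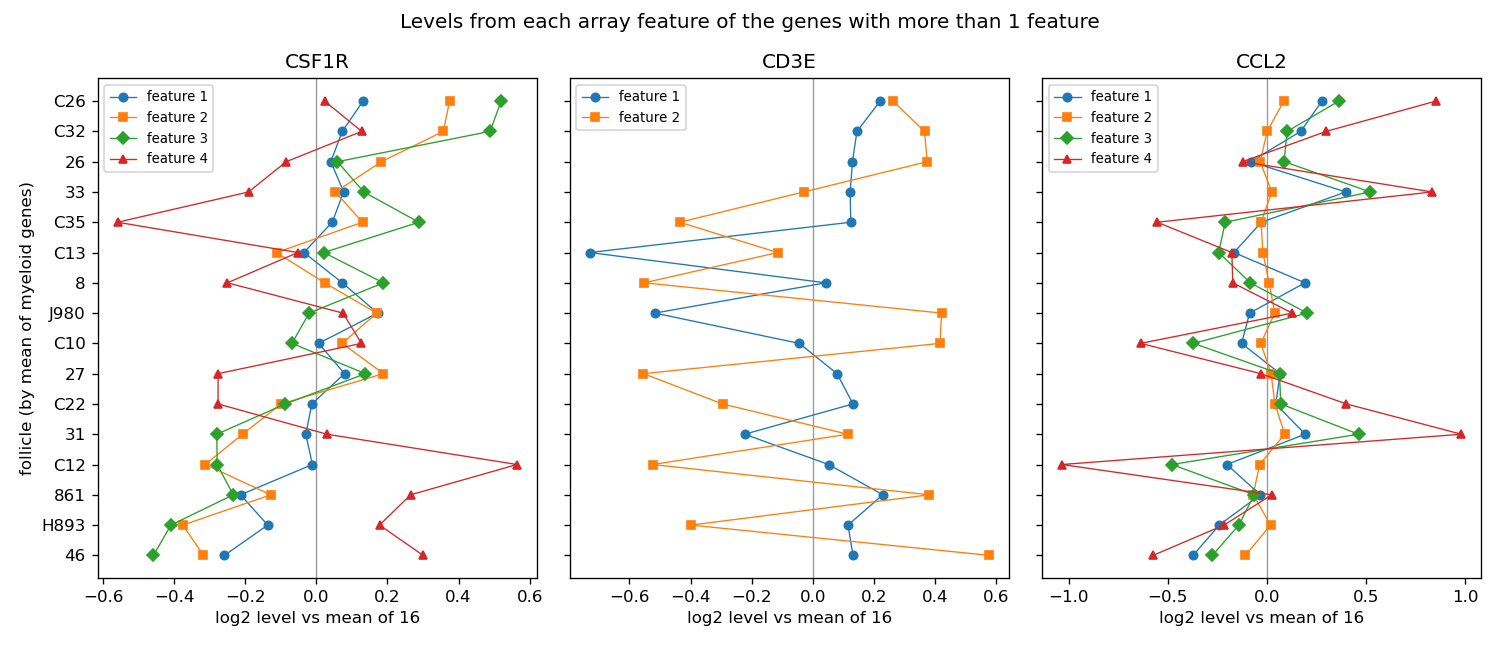
Log2 level (horizontal axis, difference from the mean of the 16 follicles) in each follicle (vertical axis, ordered by the mean of the 6 myeloid genes) from each array feature of CSF1R, CD3E and CCL2; lines join the levels of 1 feature. The CCL2 features move together with SDs from 0.05 to 0.57, feature 4 of CSF1R opposes the other 3, and the 2 features of CD3E follow different orders.

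Tests of single levels against the mean of the 16 follicles placed 5 of the 160 levels of these genes above it and 0 below it, with limma and adjustment over all genes and follicles. The share above was 3.13%, where over all levels tested 0.275% were called above and 0.316% below. The genes were picked with earlier results of these data known, so these shares are a description. By this test of single levels the calls were C1QB in C26 (adjusted p = 0.00888) and in C32 (adjusted p = 0.0309), C1QC in C26 (adjusted p = 0.00712), CORO1A in C26 (adjusted p = 0.0161) and CCL2 in follicle 33 (adjusted p = 0.0473). The CCL2 call was lost with no dye term (adjusted p = 0.0639), no moderation (0.0567), 1 feature per gene (0.139) and without J980 (0.0591). The CORO1A call was lost with no dye term (0.0949), no moderation (0.0659) and without J980 (0.0623). Both were kept with values as deposited, arrays at one scale and values on all 24 arrays. At an unadjusted p under 0.05, 26 of the levels lay above and 21 below. The share of all levels at this unadjusted threshold is not given here, so these counts have no background to be read against. Without J980 2 levels passed, without C26 and its arrays 0 did, and 0 also passed when only the array of C22 and C26, of C10 and 26, or of C26 and 33 was left out.

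Counted over the 10 genes, C26 was the highest follicle for 5 and among the highest 2 for 7, and C32 was highest for 1 and among the highest 2 for 6. H893 and C13 were each lowest for 3 genes, and follicle 46 was among the lowest 2 for 4. The mean of the 6 myeloid genes was 0.53 in C26 and 0.48 in C32, 0.19 in follicle 26 as the next, and -0.38 in both H893 and 46. The mean of the 3 leukocyte and lymphoid genes was 0.52 in C26 and 0.38 in C32, with 0.20 in C35 and -0.40 in C13 at the other end. Over all genes tested 9.55% were highest in C26 or C32, and of those that passed the F test 13.3% were.

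The myeloid mean and the leukocyte and lymphoid mean followed each other over the 16 follicles (Pearson r = 0.80, Spearman rho = 0.66). These points share arrays through the loop, so the correlation is a description. Without the levels of C26 and C32, the 2 follicles farthest from the median, r was 0.56, and when C26, C32 and their arrays were left out of the fit it was 0.39. PTPRC and CORO1A mark leukocytes in general, so the second mean is not a measure of lymphocytes. CD3E, the T cell gene of that set, had r of 0.55 with C1QB, 0.50 with C1QC and 0.27 with CSF1R. Its r was 0.17 with CD68, -0.06 with TYROBP and -0.60 with CD14. The sets parted most in C13, where the myeloid mean exceeded the other by 0.39, and in follicle 46, where it was below it by -0.25. In C13 CORO1A was at -0.64, CD3E at -0.43 and PTPRC at -0.12. TYROBP was at 0.61 there, and the other myeloid genes lay between -0.34 for C1QB and 0.04 for CD14.

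**Figure D4:**
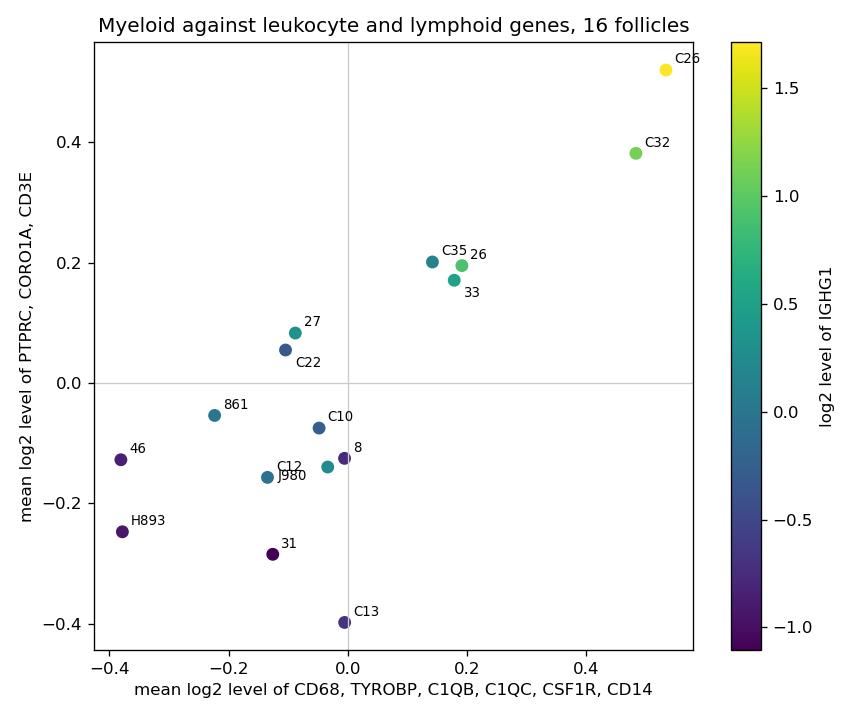
Mean log2 level of the 6 myeloid genes (horizontal axis) against that of the 3 leukocyte and lymphoid genes (vertical axis) in each of the 16 follicles, coloured by the log2 level of the immunoglobulin gene IGHG1. C26 and C32 sit in the upper right at 0.53 and 0.48 on the horizontal axis, and C13 lies lowest on the vertical axis at -0.40.

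Between single genes, C1QB and C1QC were the closest pair (r = 0.94, rho = 0.84, r = 0.82 without C26 and C32). CD68 and CSF1R had r = 0.88, with 0.80 without C32 and H893. Pairs across the sets had lower r than these, up to 0.86 for C1QC with CORO1A, 0.85 for C1QB with CORO1A, 0.85 for CSF1R with PTPRC and 0.81 for CD68 with PTPRC. Without the 2 follicles farthest from the median of the myeloid gene these were 0.78, 0.77, 0.72 and 0.79. The 15 pairs of myeloid genes had a median r of 0.59, with 11 above 0, and the 18 pairs between the sets had a median of 0.52, with 14 above 0. The 9 pairs with CCL2 had a median of 0.37. Single genes of all those tested spread widely against these levels: 90% of them lay between -0.54 and 0.56 for C1QB, between -0.64 and 0.66 for CD68, between -0.65 and 0.67 for CSF1R and between -0.70 and 0.71 for PTPRC. Pairs such as CD68 with C1QC (r = 0.56), C1QB with PTPRC (0.64) and CD68 with C1QB (0.65) lay within such a range for at least 1 of their genes.

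CD14 and CD3E were the exceptions within their sets. CD14 had r between -0.47 and 0.13 with the other myeloid genes, -0.60 with CD3E and -0.01 with CCL2, and only its r with TYROBP was above 0. CD3E had r of 0.13 with PTPRC and 0.45 with CORO1A, against 0.55 with C1QB and -0.06 with TYROBP. Neither gene passed the F test, and neither did CSF1R or PTPRC, whose r with each other was 0.85.

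**Figure D5:**
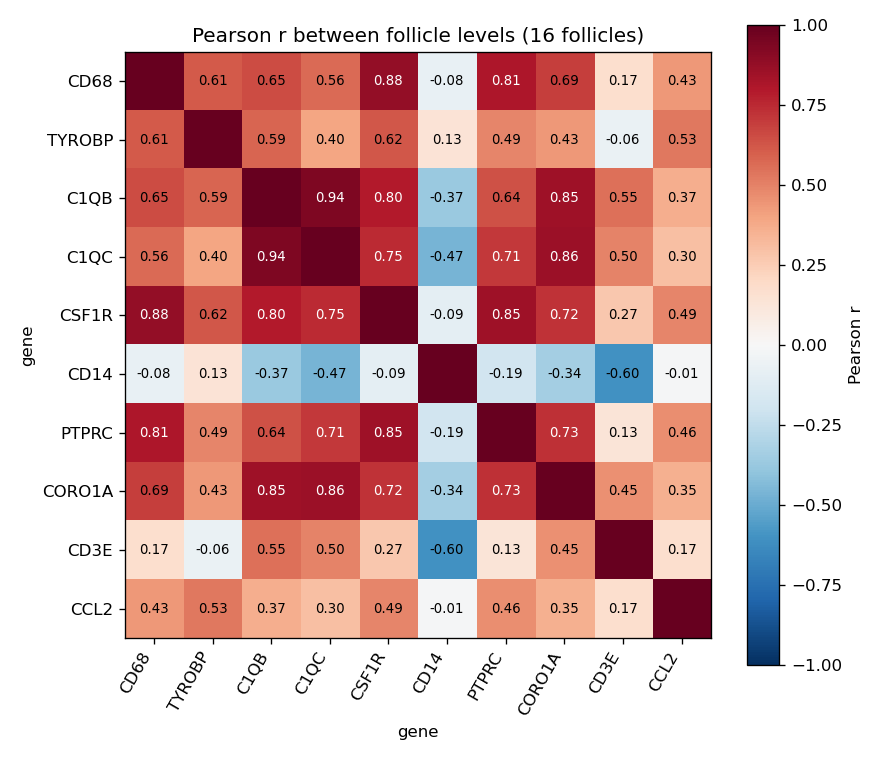
Pearson r between the log2 levels of each pair of the 10 marker genes over the 16 follicles, from blue (-1) through white (0) to red (1), with the value in each cell. Positive r of 0.56 or more joins CD68, C1QB, C1QC, CSF1R, PTPRC and CORO1A, up to 0.94 for C1QB with C1QC, while the CD14 row is mostly below 0, down to -0.60 with CD3E.

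IGHG1 and JCHAIN, genes of antibody-secreting plasma cells, were high in the same follicles as most of these markers. IGHG1, the immunoglobulin heavy chain gene averaged over 56 features, was at 1.71 ± 0.16 in C26 and at 0.92 ± 0.16 in follicle 26, with C32 between them, and at -1.11 ± 0.17 in follicle 31 (adjusted p = 3.18e-04). Its r was 0.84 with the myeloid mean and 0.89 with the leukocyte and lymphoid mean, and 0.66 and 0.79 without C26 and C32. By gene, r with IGHG1 was 0.88 for CORO1A, 0.84 for CSF1R, 0.82 for C1QB, 0.77 for C1QC and 0.74 for CD68, and it was 0.36 for CCL2 and -0.19 for CD14. JCHAIN, the joining chain of secreted immunoglobulins, ran from 1.14 ± 0.16 in C26 to -0.96 ± 0.18 in H893 (adjusted p = 0.0121). In the list of B and plasma cell genes 2 of 5 measured passed, these 2. MZB1, a chaperone of antibody-secreting cells, did not (adjusted p = 0.477), was highest in J980 at 0.24 ± 0.11, and had r of 0.50 with the myeloid mean and 0.19 with the leukocyte and lymphoid mean. CD79A and CD79B of the B cell receptor did not pass either and had r of -0.41 and -0.46 with the myeloid mean. The part of immunoglobulin RNA in the marker levels was not tested.

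Among all genes that passed the F test, those nearest to the myeloid mean were JCHAIN (r = 0.94), BOLA-DRB3 (0.92), BOLA-DQA1 (0.90), LAPTM5 (0.88) and NUCB1 (0.88). BOLA-DRB3 and BOLA-DQA1 encode chains of class II molecules, which present antigen to helper T cells, and LAPTM5 is a lysosomal protein of leukocytes. C1QB was nearest to LOC783680 (r = 0.92) and BOLA-DRB3 (0.92), and C1QC to BOLA-DRB3 (0.86) and CD74 (0.84), the invariant chain of class II. CSF1R was nearest to JCHAIN (0.94) and LOC515676 (0.92), CD68 to CH25H (0.86) and JCHAIN (0.85), and TYROBP to CD53 (0.80), a leukocyte tetraspanin, and ITM2B (0.75). CORO1A was nearest to PSMD7 (0.94) and LOC524810 (0.93), and PTPRC to BET1 (0.87) and LOC515676 (0.86). Outside this group, CD3E was nearest to TMC8 (0.80) and DCN (0.73), CD14 to EGLN1 (0.70) and PTGIS (0.67), and CCL2 to AMBP (0.72) and PRIM1 (0.67). These are the highest of many values over 16 follicles.

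Of the lists of related genes, the class II genes had the highest median r with the myeloid mean. Of the 8 measured 5 passed, the median r was 0.76 against -0.03 for all genes tested, and 7 had r above 0, as did 47.5% of all genes tested. BOLA-DQA1 ran from 1.35 ± 0.13 in C26 to -0.93 ± 0.15 in follicle 46 (adjusted p = 3.18e-04). BOLA-DRA ran from 1.24 ± 0.14 in C32 to -0.83 ± 0.14 in follicle 46 (adjusted p = 3.58e-04), and BOLA-DRB3 from 0.81 ± 0.10 in C26 to -0.48 ± 0.12 in H893 (adjusted p = 0.00131). CD74 and CIITA, the activator of class II transcription, also passed, but with different top follicles. The CD74 level peaked in C32 (0.53 ± 0.10). CIITA instead peaked in follicle 8 (0.66 ± 0.15), where CD74 had its minimum (-0.36 ± 0.10). With the myeloid mean, CIITA had r of 0.51 and CD74 of 0.88. Class II is made by macrophages, dendritic cells and B cells.

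Of 23 other macrophage genes measured 1 passed, where 11.8% of all genes did: NPC2, a lysosomal cholesterol carrier, from 0.41 ± 0.12 in C10 to -0.45 ± 0.14 in follicle 46 (adjusted p = 0.0475). CTSS, the protease that processes the class II invariant chain, was at 0.69 ± 0.13 in C26 and missed the threshold (adjusted p = 0.0511). AIF1, an actin-binding protein of macrophages, was at 0.57 ± 0.12 in C32 and -0.48 ± 0.12 in H893 (adjusted p = 0.0647). CD163, a haemoglobin scavenger receptor of tissue macrophages, ran only from 0.29 ± 0.14 to -0.17 ± 0.12 (adjusted p = 0.542). The median r of the 23 genes with the myeloid mean was 0.41, and 17 had r above 0, as did 47.5% of all genes tested.

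For this and the following lists the background is the 11.8% of all genes tested that passed. The adjusted p beside a level is again that of the F test of the gene over all follicles, not of that level. Of 20 other genes of leukocytes in general 3 passed, with a median r of 0.32. They were CD44, an adhesion receptor also made by other cells, at 0.53 ± 0.10 in C26 (adjusted p = 0.00118), CD53 at 0.96 ± 0.16 in C26 (adjusted p = 0.00976) and LAPTM5 at 0.75 ± 0.12 in C26 (adjusted p = 0.0128). Of 24 other lymphoid genes 1 passed, TRAF3IP3, at 0.35 ± 0.08 in C26 (adjusted p = 0.0224). CD3G, another chain of the T cell receptor complex, was at 0.51 ± 0.14 in C32 and -0.42 ± 0.14 in 861 (adjusted p = 0.0763), and LCK, the kinase of T cell signalling, at 0.57 ± 0.13 in follicle 27 (adjusted p = 0.152). The median r of the lymphoid genes with the myeloid mean was 0.13. Over all genes tested the median r with this mean was -0.03. Of single genes 90% had r between -0.59 and 0.61, a spread against which medians of lists cannot be judged. Of 4 neutrophil genes 0 passed by limma's F test and 1 had an unadjusted p under 0.05, CATHL1 (adjusted p = 0.0762). CATHL2, like CATHL1 a cathelicidin, and S100A8 had adjusted p of 0.625 and 0.89. With the myeloid mean 1 of the 4 had r above 0, as did 47.5% of all genes tested.

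In complement beyond C1QB and C1QC, 5 of 15 genes passed. C1S, a protease of the C1 complex, ran from 0.70 ± 0.16 in C10 to -0.66 ± 0.18 in follicle 8 (adjusted p = 0.00651), and C7, of the membrane attack complex, from 0.57 ± 0.13 in follicle 33 to -0.69 ± 0.14 in follicle 31 (adjusted p = 0.0099). C1QBP, a mitochondrial protein first found as a binder of C1q, ran from 0.47 ± 0.10 in follicle 31 to -0.30 ± 0.09 in C10 (adjusted p = 0.0315). Their r with the myeloid mean was 0.59, 0.62 and -0.58, and C1S was highest in another follicle than C1QB and C1QC. C1R and SERPING1, the inhibitor of the C1 proteases, also passed.

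Of 16 other chemokines and receptors 4 passed, none of them highest in C26 or C32. CXCR4, the receptor of CXCL12, was at 2.06 ± 0.20 in J980 (adjusted p = 6.11e-05), CCL21, which guides cells to lymphatic vessels, at 0.41 ± 0.08 in C10 (adjusted p = 0.0115), and CCL20, which attracts dendritic cells and lymphocytes, at 1.05 ± 0.17 in follicle 8 (adjusted p = 0.0215). CCL20 was lowest in follicle 33, at -0.91 ± 0.15, where CCL2 was highest. CCL3 was the fourth to pass. Of 15 genes of lipopolysaccharide and cytokine signalling 2 passed. TLR3, a receptor for double-stranded RNA, was at 0.56 ± 0.09 in C26 and -0.54 ± 0.11 in H893 (adjusted p = 0.0102), and IL18 at 0.81 ± 0.23 in follicle 8 (adjusted p = 0.0138). NFKBIA, an inhibitor of NF-kB, did not pass (adjusted p = 0.112).

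Markers of the other cells of a follicle were set beside these levels. Of 10 granulosa genes 5 passed, with a median r of -0.03 with the myeloid mean, and FST, INHBA and INHA were all lowest in J980 at -2.05 ± 0.10, -2.69 ± 0.17 and -0.77 ± 0.14. AMH and SERPINE2 were the others to pass. All 5 genes measured of the theca list passed, with a median r of 0.06. Most of them serve steroid synthesis in general, so their levels do not measure theca content. FDX1, an electron carrier of steroid synthesis, ran from 0.72 ± 0.10 in H893 to -0.90 ± 0.10 in follicle 46. HSD3B1 and SCARB1 were lowest in J980 and in follicle 46, at -0.63 ± 0.11 and -0.56 ± 0.13. CYP11A1 and INSL3 were the remaining genes of this list. Of 12 smooth muscle and stroma genes 3 passed, COL1A2, DCN and ACTA2, with a median r of 0.26. Of 8 endothelial genes 1 passed: PECAM1 ran from 2.38 ± 0.31 in C26 to -1.24 ± 0.35 in H893 (adjusted p = 0.00511, r = 0.85), while CLDN5 and ESAM had r of 0.58 and -0.35. Of 3 erythrocyte genes 1 passed, ALAS2, highest in C35 at 0.69 ± 0.13 and lowest in C32 at -0.48 ± 0.14 (adjusted p = 0.0105). The adjusted p was 0.435 for HBB, the beta chain of haemoglobin, and 0.896 for CA2, a carbonic anhydrase. The part of these cells, and of blood in the vessels, in the marker levels was not tested.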

How the data were processed

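The values are the log ratios of both channels that the authors deposited, taken as log2: the largest absolute value, 6.32, is beyond the reach of log10 ratios from a 16-bit scanner (4.82), but natural logs are possible. Per the labels' protocols, 5 µg of total RNA per follicle was labelled with dendrimer reagents and images were read with GenePix Pro 4.0.1.12. The background correction, the spot filter and the normalization were not given in the sources used. Scanner intensities were not used here, so signal over background is unknown. Channel 1 is Cy5 per the labels, and Cy5 over Cy3 was taken as likely.

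Of 17418 features, 13605 had 1 symbol, 829 several and 2984 none; only the first kind was named. Features of 1 symbol with values on at least 20 arrays were averaged per array after centring each array on its median. Follicle effects (1 for Cy5, -1 for Cy3) and a dye term were fitted with limma 3.58.1 in R 4.3.3, with 8 residual degrees of freedom, and a joint F test of the follicles was adjusted by Benjamini-Hochberg over all 9026 genes (threshold 0.05). At unadjusted p under 0.05, 2390 genes and 6 of the 10 markers passed. Single levels (sum 0) were adjusted over all 144416. The fits were tested on simulated data with the real loop. The p-values measure only the spread between arrays of the same RNA.

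The markers and lists were chosen with earlier results of these data known. Named genes are the 10 markers, the 3 of smallest p in each list, the 2 called genes nearest to each marker, the 5 nearest to the myeloid mean, and IGHG1; CD163, C1QA, CD79A and CD79B are named as cell type markers, and further called genes of short lists were chosen once their values had been seen. Alternatives changed centring, scale, minimum arrays, dye term, moderation, features per gene, direction, and arrays or follicles included; the fits without C26 and without C26 and C32 were added after the data were seen. A search of promoters for motifs was planned and not run, and no sequence was used here. Unused columns of per-sample values numbered 0. Python 3.11.15 with matplotlib 3.10.9 drew the figures.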

Additional observations from a re-analysis of the deposited data

How the results depend on the processing

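The count of markers that differed, 6, was 3 with no dye term, 3 with no moderation of the variances, 3 without C26 and 1 without C26 and C32; centring, minimum arrays and features per gene kept it within 1.5 times, and leaving out each array gave 4 to 7. The genes called, 1061, were 608 with no dye term, 589 with no moderation, 673 without J980, 489 without C26 and 418 without C26 and C32, and 681 to 1172 when 1 array was left out, with 681 without the array of 33 and C13 and 688 without that of 31 and C10. Marker levels apart from the mean, 5 in the fit as reported, were 8 with arrays at one scale, 3 with no dye term, 2 with no moderation, 2 without J980, 0 without C26 and 0 without C26 and C32. Leaving out 1 array gave 0 to 5, with 0 without the array of C22 and C26, of C10 and 26, or of C26 and 33. The r of the myeloid mean with the leukocyte and lymphoid mean, 0.80, was 0.72 with values on all 24 arrays, 0.71 with 1 feature per gene, 0.52 without C26, 0.39 without C26 and C32, and 0.60 to 0.83 when 1 array was left out. With Cy3 over Cy5 the extreme levels turned their sign by construction, to -0.78 for CD68, -0.61 for TYROBP, -1.04 for C1QB, -0.74 for C1QC, -0.86 for CORO1A and -0.44 for CCL2. Of the 24 fits that each left out 1 array, C1QB, C1QC and CCL2 passed in 24, CORO1A in 23, CD68 in 17 and TYROBP in 16, and CD3E passed in 1. The causes were not tested. Each level rests on 3 arrays of 1 RNA, and signal over background is unknown, so a dim feature cannot be told from a stable one. The pairing of 2 follicles on each array is part of the fit. Replicate numbers only name the arrays of a follicle and give no further pairing.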
